A study of Danio rerio with 12 samples.

Results

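The genes described are the Delta and Jagged ligands and the Notch receptors of the zebrafish embryo, namely dla, dlb, dlc, dld, jag1b, jag2b, notch1a, notch1b, notch2 and notch3. The members were all probe sets of the array whose annotation gives one of these symbols, which makes 16 probe sets of 10 genes among the 15502 probe sets and 8793 genes tested. Each probe set is a group of short oligonucleotides on the Affymetrix Zebrafish Genome Array that together read 1 transcript region. A gene's probe sets are told apart here by the accession of the transcript they were designed from, as the array annotation gives it, with the Affymetrix suffix where 2 share one. Wild-type AB embryos were either exposed to 10 nM morphine, an opioid, added to their E3 medium at 5 h post-fertilization (hpf) and present until collection, or given no treatment. Embryos of both groups were collected at 24 hpf, and RNA was taken from pools of about 100 whole embryos. There were 6 morphine pools and 6 control pools with 1 array per pool, 12 in all. The labels call the pools biological replicates and do not say from which clutches they came. A whole-embryo pool mixes all tissues, so fewer cells of a type and less RNA per cell cannot be told apart in any value given here.

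Notch signalling passes between neighbouring cells. A Delta or Jagged protein on one cell binds a Notch receptor on the next, the receptor is cut, and its inner part moves to the nucleus to switch on target genes such as those of the her family. In the embryo this pathway keeps some neural cells as progenitors while their neighbours become neurons, times the formation of somites, and takes part in the patterning of arteries, the inner ear and the face.

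Signals are log2 RMA values, in which 1 unit is a doubling, and changes are morphine minus control. Probe sets differ in how strongly they bind, so a brighter or dimmer signal is a property of the probe set and no measure of which gene is more highly expressed. Array medians lay between 5.81 and 5.86. Within a group the SD of a probe set had a median of 0.12 over the morphine pools and 0.10 over the control pools. On the first principal component of all probe sets, which held 28.3% of the variance, morphine pool 1 and control pools 1 and 2 stood apart, with scores of -22.44 to -11.24 against 0.26 to 13.09 for the other pools. A probe set was called when its limma p, adjusted by Benjamini-Hochberg over all probe sets tested, was under 0.10. By this rule 1062 of 15502 probe sets were called, which is 6.85%, with 3.13% higher and 3.72% lower with morphine.

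With morphine, 1 member probe set was higher and 1 was lower, and 14 of the 16 were not called. The higher one read dlc and the lower one dlb, both of them Delta ligands. No Jagged ligand and no Notch receptor passed the threshold. The median change of the members was 0.041, with 10 of 16 above 0, beside a median of 0.009 with 8335 of 15502 above 0 over all probe sets. Changes smaller than 0.25 on the log2 scale made up 93.8% of the members and 94.4% of all probe sets.

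**Figure D1:**
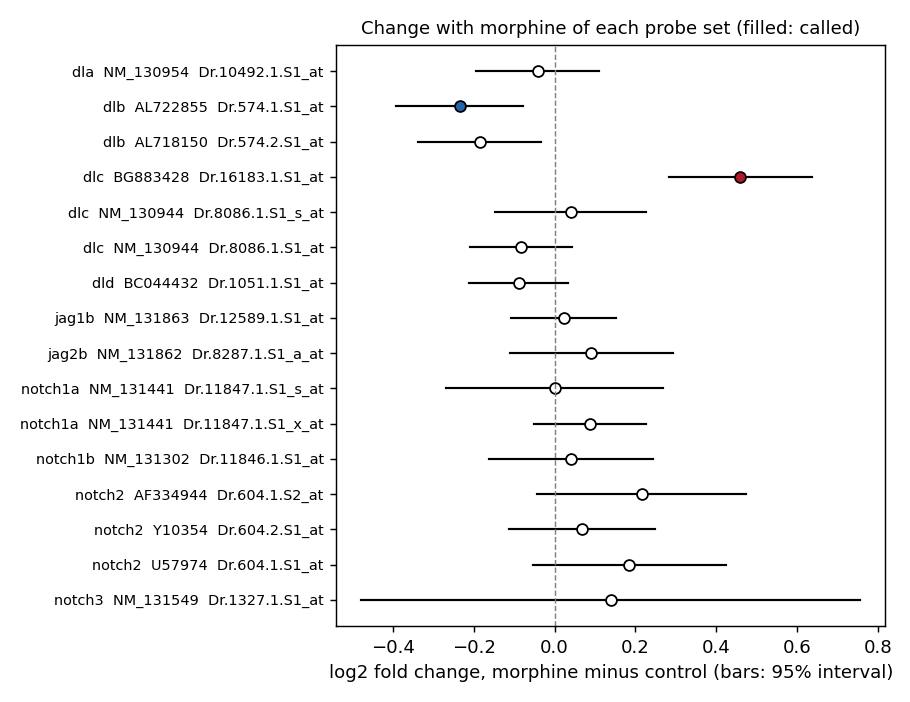
Change with morphine of each of the 16 probe sets, as log2 fold change (morphine minus control, x axis) with its 95% interval from limma; filled points are the probe sets called. The dlc probe set at 0.46 and the dlb probe set at -0.23 are the filled points, and the interval of notch3, -0.48 to 0.76, is the widest of the 16.

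The Delta gene dlc encodes a ligand of the somite clock in the presomitic mesoderm and is also used in the nervous system, the ear and the vessels. Its probe set BG883428 had log2 signals of 6.07, 6.13, 6.31, 6.38, 5.83 and 6.16 in morphine pools 1 to 6, against 5.79, 5.70, 5.63, 5.49, 5.81 and 5.71 in control pools 1 to 6. All 6 morphine pools lay above all 6 control pools, and the lowest of them, pool 5 at 5.83, came next to the highest control pool, pool 5 at 5.81. Groups that do not overlap were found for 3.61% of all probe sets. The mean was 6.15 ± 0.19 in morphine pools and 5.69 ± 0.12 in control pools (SD, n = 6 each). The change was 0.46 with an SE of 0.083, a fold of 1.37, with a limma adjusted p of 0.00343 and a 95% interval of 0.28 to 0.64. The exact permutation test gave p = 0.00216 (two-sided), which is the smallest value that the 924 splits of 12 arrays into 6 and 6 allow.

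The other probe sets of dlc did not show this increase. NM_130944 _s_at had 5.54, 5.92, 5.74, 5.98, 5.64 and 5.91 in morphine pools 1 to 6, against 5.68, 5.81, 5.94, 5.63, 5.90 and 5.53 in control pools. The groups overlapped over nearly their whole range, and the change was 0.040 with a limma adjusted p of 0.881 and a 95% interval of -0.15 to 0.23. The suffix _s_at marks a probe set that shares sequence with other transcripts, so it does not read dlc alone for certain. NM_130944 _at had 3.07 to 3.37 in morphine pools (median 3.22), against 3.14 to 3.41 in control pools (median 3.33). Its change was -0.084 (limma adjusted p = 0.542), and only 3.46% of all probe sets had a lower mean signal, so it lay near the dim end of the array, where a change can be hard to see. The array annotation names the same gene for all 3 probe sets but a different source transcript for BG883428 than for the other 2. Which part of the transcript each probe set reads was not examined.

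Whether the dlc probe sets changed unequally was tested within each array, a test chosen after the values were seen. BG883428 minus NM_130944 _s_at averaged 0.36 in morphine pools and -0.061 in control pools, a change of 0.42 with no overlap between groups (exact permutation test, two-sided, p = 0.00216, adjusted p = 0.00432 over both pairs). With pools paired by replicate number, the exact sign-flip test gave an adjusted p of 0.0625 over both pairs. The difference was larger in the morphine pool for every replicate number, so the unadjusted p was the smallest that this test allows. The pair with NM_130944 _at, whose signal is dim, enters here only through the adjustment. Since BG883428 had already been called higher, this difference is no independent evidence of its increase. The interval of NM_130944 _s_at ends at 0.23, below that of BG883428, which starts at 0.28, and dlc was called higher on 1 of its 3 probe sets.

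The gene dlb encodes a Delta ligand of scattered cells of the neural plate, where it takes part in lateral inhibition among future neurons. Its probe set AL722855 had 7.53, 7.52, 7.75, 7.90, 7.60 and 7.63 in morphine pools 1 to 6, against 7.79, 7.70, 8.02, 7.91, 7.99 and 7.92 in control pools. All 6 morphine pools lay below the control median of 7.915 and 4 of them below every control pool, while morphine pools 3 and 4 lay among the control pools. The mean was 7.66 ± 0.15 in morphine pools and 7.89 ± 0.12 in control pools (SD, n = 6 each). The change was -0.23 with an SE of 0.074, a fold of 0.85, with a limma adjusted p of 0.0934 and a 95% interval of -0.39 to -0.077. The exact permutation test gave p = 0.0195 (two-sided). This call lay close to the threshold and was lost in 9 of the 12 fits that each left out 1 array, where the adjusted p was 0.0273 to 0.199 and the change -0.28 to -0.21. It was lost without control pool 1 (adjusted p = 0.105), 3 (0.196), 4 (0.168), 5 (0.185) or 6 (0.166), and without morphine pool 1 (0.151), 2 (0.199), 5 (0.153) or 6 (0.137).

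A further dlb probe set, AL718150, had 4.72, 4.52, 4.54, 4.66, 4.61 and 4.403 in morphine pools 1 to 6, against 4.73, 4.80, 4.69, 4.57, 5.00 and 4.75 in control pools. Here too all 6 morphine pools lay below the control median, and 3 lay below every control pool. The change was -0.185 with a 95% interval of -0.34 to -0.033, a limma adjusted p of 0.187 and an exact permutation p of 0.0281, and it was not called. Both dlb probe sets thus had lower means with morphine, by a like amount, and 1 of them passed the threshold. Of all probe sets 32.5% had a lower mean signal than AL718150, which was dim and did not pass the filter on dim probe sets. Around the group means their correlation over the 12 arrays did not pass the test (r = 0.093, Spearman's rho 0, permutation adjusted p = 0.776 over the 8 pairs of probe sets of the same gene).

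**Figure D2:**
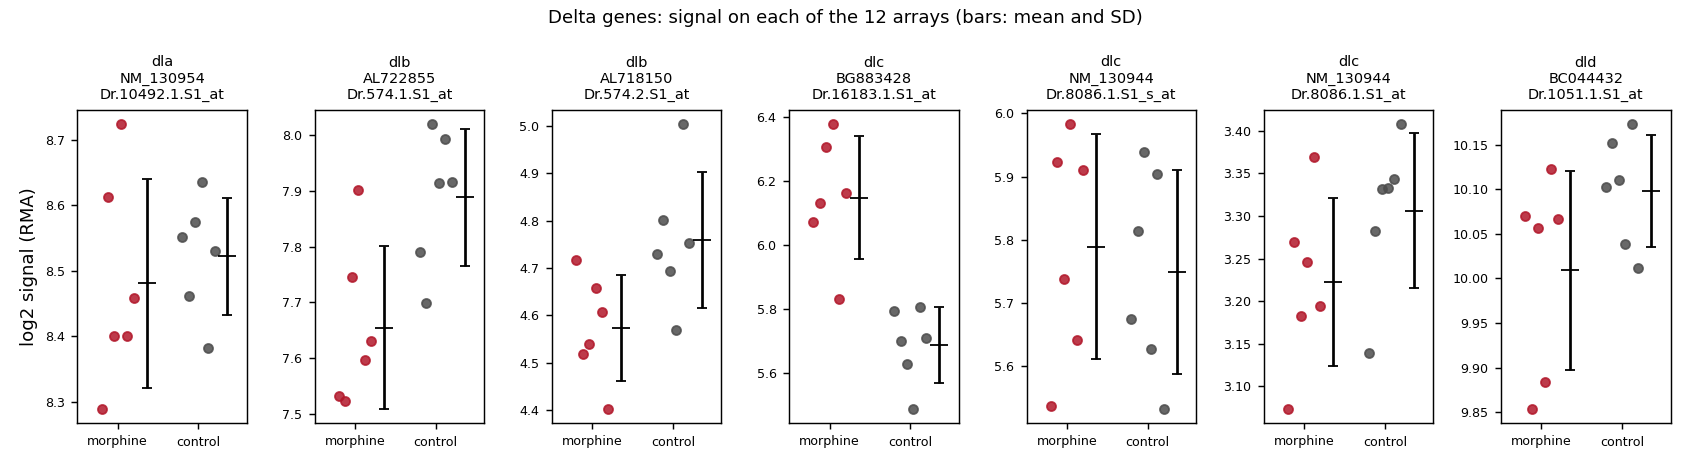
Log2 RMA signal (y axis, own scale in each panel) of the 7 probe sets of the Delta genes on each of the 12 arrays; points are pools 1 to 6 of morphine and of control from left to right, and bars are the mean and SD (n = 6 each). The groups are apart in the panel of dlc BG883428, and in that of dlb AL722855 morphine pool 4 at 7.90 lies among the control pools.

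The remaining Delta ligands, dla and dld, are used in lateral inhibition in the neural plate, and dld also in the somite clock. For dla, the morphine pools held 8.29, 8.61, 8.40, 8.72, 8.40 and 8.46, against 8.55, 8.46, 8.57, 8.64, 8.38 and 8.53 in control pools. The highest and the lowest signal were both those of morphine pools, with a mean of 8.48 ± 0.16 in morphine pools and 8.52 ± 0.089 in control pools (SD, n = 6 each). The change was -0.042 (limma adjusted p = 0.838), with a 95% interval of -0.19 to 0.11. The dld probe set had 10.07, 9.85, 10.06, 9.88, 10.12 and 10.07 in morphine pools, against 10.10, 10.15, 10.11, 10.04, 10.17 and 10.01 in control pools. Morphine pools 2 and 4 were the lowest of the 12, the other 4 lay within the control range, and the change was -0.089 (limma adjusted p = 0.496).

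Whether dlc, read by BG883428, changed unequally to the other Delta genes was tested on the differences within each array. The mean of dlc minus dla was -2.33 in morphine pools and -2.84 in control pools, a change of 0.50. For dlc minus dlb the mean was -1.51 in morphine pools and -2.20 in control pools, a change of 0.69. For dlc minus dld it was -3.86 in morphine pools and -4.41 in control pools, a change of 0.55. In all 3 pairs the groups did not overlap, and each had an exact permutation p of 0.00216 (two-sided, adjusted p = 0.00216 over the 3 pairs). These differences carry the increase of BG883428 already given, which is the brightest dlc probe set over all 12 arrays. With NM_130944 _s_at in its place, a choice made after the values were seen, the change was 0.082 against dla, 0.27 against dlb and 0.13 against dld, and none passed (exact permutation adjusted p of 0.396, 0.0519 and 0.396). At the threshold of 0.05 the differences with BG883428 passed and those with NM_130944 _s_at did not. The 3 results with BG883428 share its increase, so they are no independent evidence of an unequal change of dlc.

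Of the Jagged ligands, jag1b takes part in the patterning of the face and jag2b is expressed in the neural tube and other epithelia. The jag1b signal was 5.53 to 5.89 in morphine pools (median 5.74), against 5.62 to 5.77 in control pools (median 5.73), and it changed by 0.022 (limma adjusted p = 0.911). The spread was wider with morphine, with an SD of 0.135 in morphine pools and 0.053 in control pools, a difference that was not tested. For jag2b the signal was 7.07, 7.46, 7.03, 7.31, 6.85 and 7.36 in morphine pools, against 7.20, 7.16, 7.18, 7.14, 6.89 and 6.96 in control pools. Morphine pools 2, 4 and 6 lay above every control pool and pool 5 below every one, and the change was 0.091 (limma adjusted p = 0.702).

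The receptors notch1a, which acts in neurogenesis and in somite formation, and notch1b, which acts in arteries and in the nervous system, were not called. Both notch1a probe sets were designed from NM_131441, and the one with the suffix _s_at had 4.57 to 5.39 in morphine pools and 4.65 to 5.20 in control pools, with a mean of 4.93 in both and a change of 0 (limma adjusted p = 1). Its companion with the suffix _x_at had 4.19 to 4.502 in morphine pools and 4.15 to 4.41 in control pools, and changed by 0.087 (limma adjusted p = 0.568). The suffixes _s_at and _x_at mark probe sets that share sequence with other transcripts, so that neither reads notch1a alone for certain. These 2 had the highest correlation among pairs of probe sets of the same gene (r = 0.71, rho = 0.71), which did not pass adjustment over the 8 pairs (permutation adjusted p = 0.212). For notch1b the signal was 4.59 to 5.25 in morphine pools and 4.62 to 5.01 in control pools, with a change of 0.041 (limma adjusted p = 0.889). The probe sets of notch1a and notch1b were all dim, with group means below 5, so a change can be hard to see there.

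The receptor notch2 was read by 3 probe sets, all with a mean above that of control pools and none called. AF334944 had 6.76, 7.35, 6.86, 7.27, 6.71 and 7.41 in morphine pools 1 to 6, against 6.94, 6.68, 7.06, 6.87, 6.85 and 6.68 in control pools. Morphine pools 2, 4 and 6 lay above every control pool, while pools 1, 3 and 5 lay within the control range. The mean was 7.06 ± 0.32 in morphine pools and 6.85 ± 0.15 in control pools (SD, n = 6 each), and the change was 0.215 (limma adjusted p = 0.413, exact permutation p = 0.154). U57974 changed by 0.185 and Y10354 by 0.068, with limma adjusted p of 0.455 and 0.76. Both were dim, with group means below 5, so a change can be hard to see there. Morphine pools 2, 4 and 6 were the 3 highest morphine pools on 6 of the 16 member probe sets, namely those of dla and jag2b, dlc NM_130944 _s_at, both of notch1a and notch2 AF334944. This was noticed in the values and was not tested. The share of all probe sets with the same 3 pools highest was not counted, so it is not given as a trait of these genes.

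The receptor notch3, known from neural progenitors and from the mural cells of vessels, had the widest spread of the members. Its signal was 5.65, 6.07, 6.44, 7.27, 6.37 and 7.10 in morphine pools 1 to 6, against 5.86, 5.28, 6.87, 6.70, 6.79 and 6.57 in control pools. The mean was 6.48 ± 0.61 in morphine pools and 6.34 ± 0.63 in control pools (SD, n = 6 each), and the groups overlapped. The change was 0.14 (limma adjusted p = 0.877, exact permutation p = 0.699) with a 95% interval of -0.48 to 0.76, so that a change of 0.46, the size found for dlc, lies within it.

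**Figure D3:**
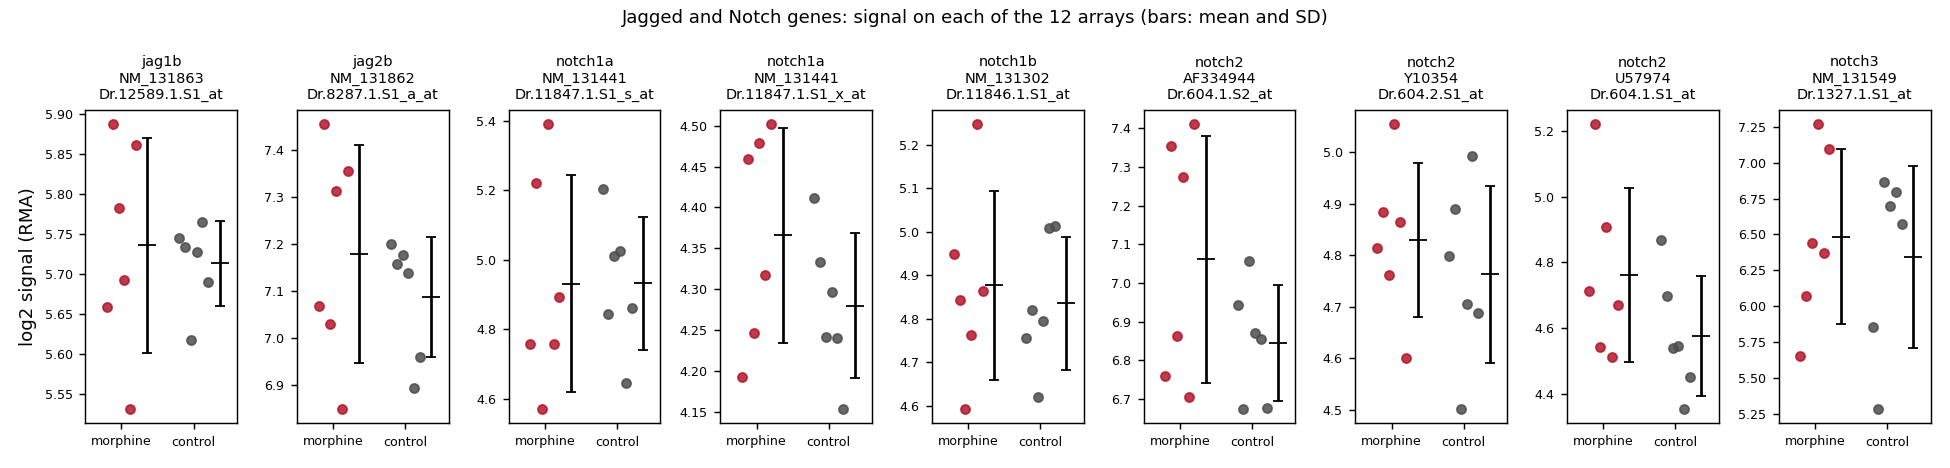
Log2 RMA signal (y axis, own scale in each panel) of the 9 probe sets of the Jagged and Notch genes on each of the 12 arrays; points are pools 1 to 6 of morphine and of control from left to right, and bars are the mean and SD (n = 6 each). The groups overlap in all 9 panels, and notch3 covers 5.65 to 7.27 in morphine pools and 5.28 to 6.87 in control pools.

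The notch3 signal moved with a measure of the labelled RNA. The array carries control probe sets for the 3′ and the 5′ end of actin, and the log2 difference between them, 3′ minus 5′, was 3.51, 4.12, 4.78, 5.11, 4.21 and 5.32 in morphine pools 1 to 6, against 3.58, 3.62, 4.93, 4.72, 4.58 and 4.59 in control pools. It averaged 4.51 ± 0.68 in morphine pools and 4.34 ± 0.585 in control pools (SD, n = 6 each), with no difference that passed the test (exact permutation p = 0.647, two-sided). Over the 12 arrays the notch3 signal had r = 0.94 with this difference (permutation p = 1e-05, the smallest that the resamples can give, adjusted p = 0.00016 over the 16 member probe sets) and a Spearman's rho of 0.91 (permutation adjusted p = 0.00176). Without morphine pool 1 and control pool 1, the 2 farthest from the median, r was 0.94. It was 0.95 within the morphine pools and 0.94 within the control pools, and 0.89 without the 3 pools that stood apart on the first component.

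Of all probe sets, with notch3 itself counted, 0.0194% had a correlation with the actin difference at or above that of notch3. Counted by size in either direction, the share was 0.0645%. No other member passed adjustment in this relation (permutation adjusted p of 0.507 or more for r). Group means were not removed for it, so a shift between groups can lower r for a called probe set. For dlb AL722855 r was 0.465 over all pools, 0.695 within the morphine pools and 0.92 within the control pools. With the actin difference as a covariate, the change of notch3 was -0.019 (limma adjusted p = 0.951), that of dlb AL722855 kept its call (adjusted p = 0.00893), and so did that of dlc BG883428 (adjusted p = 0.0027).

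**Figure D4:**
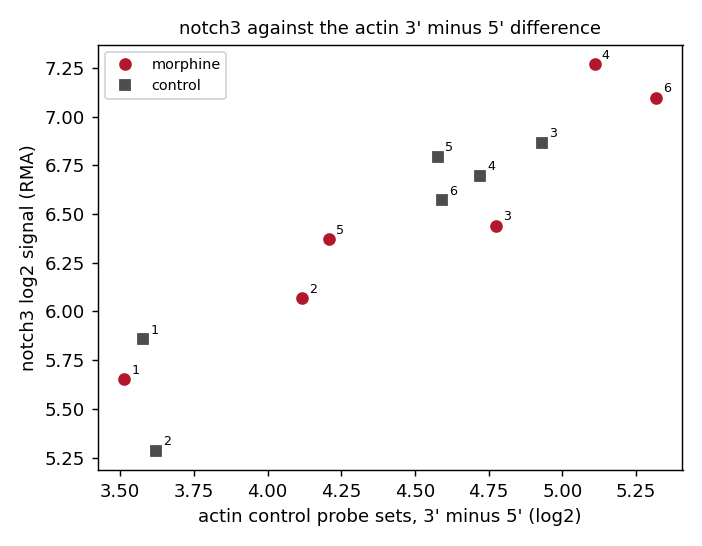
Log2 RMA signal of notch3 (y axis) against the log2 difference of the actin control probe sets, 3′ minus 5′ (x axis), for the 6 morphine pools (circles) and the 6 control pools (squares), with the replicate number beside each point. The pools of both groups lie along 1 rising band (r = 0.94 over the 12 arrays), with morphine pools 4 and 6 at its upper end and control pool 2 lowest.

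Other genes of the pathway were counted from lists, with the brightest probe set standing for each gene. Of 98 listed genes 52 were measured, of which 2 were called by limma, both of them lower with morphine, with a median change of -0.022. Over all genes 7.81% were called in either direction, and 4426 of 8793 changes were above 0, with a median of 0.001. Among ligands outside the members only jag1a was measured of 6, with a change of 0.11 (limma adjusted p = 0.648). Of the genes that ubiquitinate, internalise or anchor ligands, 3 of 9 were measured and none was called, with changes of 0.18 for mib1, the ubiquitin ligase that makes Delta active (limma adjusted p = 0.51), and 0.15 for epn1a, of the epsin family of endocytic adaptors. For magi1b, a PDZ scaffold, the probe sets annotated to it changed by 0.093 (limma adjusted p = 0.602) and -0.016 (limma adjusted p = 0.944). Of the genes for receptor glycosylation and cleavage, 12 of 17 were measured, 0 were called, and changes lay between -0.19 for rfng, a Fringe glycosyltransferase, and 0.13 for adam10b, a protease related to the one that makes the outer cut. Of the nuclear complex, turnover factors and inhibitors, 8 of 25 were measured and 0 were called, with a median change of 0.008.

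The Notch target list had 13 of 18 genes measured, of which 0 were higher and 1, her4.2, was lower. Its median change was -0.042, and 11 of 13 changes were below 0. Among these 11 are ascl1a at -0.024, also on the proneural list, and hes6 at -0.038, also on the neural progenitor list. The lists are thus not separate counts, and whether Notch raises or lowers each listed gene was not tested. The gene her4.2 encodes a bHLH repressor of the Hes and Her family and is one of a set of near-identical her4 copies. On the probe set AL722543 _at it had 5.61 to 5.89 in morphine pools, against 6.04 to 6.245 in control pools, so that the groups did not overlap, and it fell by 0.31 with an SE of 0.059 (limma adjusted p = 0.00485). On the brighter AL722543 _x_at it fell by 0.32 (limma adjusted p = 0.038) with groups that overlapped. Both probe sets annotated to several her4 genes at once were also lower, with changes of -0.405 (limma adjusted p = 0.0121) and -0.37 (limma adjusted p = 0.093). The call at -0.37 was lost in 8 of the 12 fits that left out 1 array (adjusted p up to 0.187), and it was kept without control pools 2 and 4 and morphine pools 1 and 3. The calls of both her4.2 probe sets were kept with each array left out. The probe sets annotated to her4.5 alone changed by -0.055 (limma adjusted p = 0.78) and 0.055 (limma adjusted p = 0.745). Signals of such copies cannot be fully told apart on the array, so the lower signal belongs to the her4 copies read by those probe sets and not to 1 copy for certain. The cyclic genes of the somite clock on this list, her1 at 0.003 and her7 at 0.029, were not called. Their probe sets were dim, so a change can be hard to see there. Mean signals were 3.70 for her1 and 4.56 for her7 in morphine pools, and 3.70 and 4.53 in control pools.

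Of the other her and hes genes 5 of 11 were measured, of which 1 was lower and 0 were higher, with a median change of -0.032. The lower one was her3, a neural plate repressor that in zebrafish is known to be held down by Notch and not switched on by it. On the probe set NM_131080, her3 had 7.81, 7.60, 7.60, 7.38, 7.70 and 7.54 in morphine pools 1 to 6, against 8.09, 7.905, 7.92, 7.94, 7.90 and 7.85 in control pools. The highest morphine pool lay below the lowest control pool, and her3 fell by 0.33 with an SE of 0.068 (limma adjusted p = 0.0084, and up to 0.0235 with single arrays left out). Its dimmer probe set AL715360 changed by 0.065 (limma adjusted p = 0.685). On the list of proneural genes, most of them bHLH factors of neurogenesis, 11 of 13 were measured and 0 were called. Changes lay between -0.225 for neurod1 and 0.10 for neurog1.

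**Figure D5:**
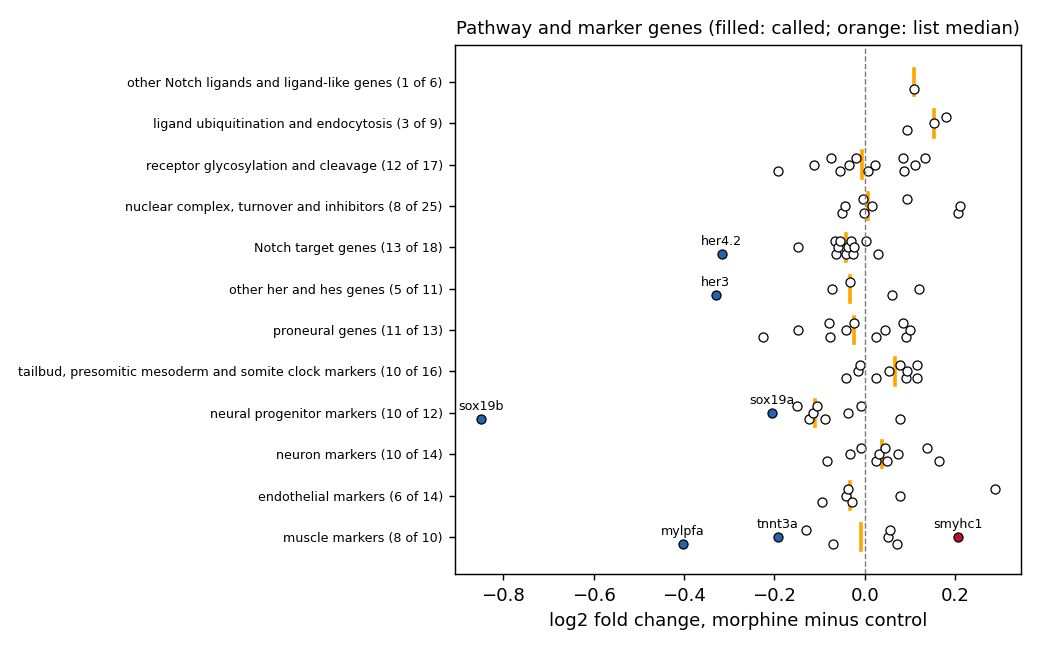
Log2 fold change (morphine minus control, x axis) of the measured genes of each list (rows, with measured of listed genes); filled points are called genes, blue lower and red higher, and orange lines are list medians. In the pathway rows the called genes are her4.2 at -0.32 and her3 at -0.33, and in the marker rows sox19b lies farthest from 0 at -0.85.

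Markers of the cells that use these genes were counted in the same way. Of 44 measured, 1 was higher and 4 were lower, beside 7.81% called in either direction over all genes. The tailbud, presomitic mesoderm and somite clock markers, the tissue of dlc and dld, had 10 of 16 measured and 0 called, with changes of -0.041 for aldh1a2 to 0.12 for cdx4 and tbx16. Their summed signal lay at 10.535 to 10.68 in morphine pools and 10.47 to 10.675 in control pools. The neural progenitor markers had 10 of 12 measured, of which 2 were lower and 0 higher. The median was -0.11 and 9 of 10 changes were below 0, among them hes6, which the Notch target list also holds. Those called were the SoxB1 factors sox19a, which fell by 0.205 (limma adjusted p = 0.0446), and sox19b, which fell by 0.85 (limma adjusted p = 0.000372), and the call of sox19a was lost without control pool 6 (adjusted p = 0.105). The dimmer sox19b probe set changed by -0.14 (limma adjusted p = 0.451), while sox2 changed by -0.115 (limma adjusted p = 0.479). The summed neural progenitor signal was 13.49 to 13.61 in morphine pools and 13.57 to 13.72 in control pools (exact permutation p = 0.00866, adjusted p = 0.104 over the 12 list sums), and pcna, a replication factor of all dividing cells, made up 52.6% of it. The summed Notch target signal, which holds her4.2 itself, was 11.40 to 11.55 in morphine pools and 11.51 to 11.61 in control pools (exact permutation p = 0.0195, adjusted p = 0.117). None of the 12 sums passed adjustment at 0.05, the adjusted p of the other 10 being 0.504 or more. The part of these sums in the results for dlb, her3 and her4.2 was not tested. No defining marker is given as absent, since the array values have no true zero.

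Of the neuron markers 10 of 14 were measured and 0 were called, with a median of 0.038 and a summed signal of 10.56 to 10.85 in morphine pools and 10.60 to 10.73 in control pools. Of the endothelial markers, the tissue in which Notch sets arterial identity, 6 of 14 were measured and 0 were called. Their median change was -0.032, with 4 changes below 0 and 2 above. The arterial ligand gene efnb2a had the change farthest from 0 in that list, 0.29 (limma adjusted p = 0.278), and the summed signal was 8.07 to 8.39 in morphine pools and 8.14 to 8.37 in control pools. Of the muscle markers 8 of 10 were measured, of which 1 was higher and 2 were lower. Their median change was -0.009, with 4 changes below 0 and 4 above. For mylpfa only the brighter of 2 probe sets is given. The fast muscle genes mylpfa, a myosin light chain, and tnnt3a, a troponin, fell by 0.40 and 0.19 (limma adjusted p of 0.0195 and 0.037), while smyhc1, a slow muscle myosin, was higher by 0.21 (limma adjusted p = 0.0583). The smyhc1 call was lost without control pool 1, 2 or 4 or morphine pool 2 or 6, with an adjusted p of up to 0.126. The summed muscle signal, of which actc1b alone made up 53.9%, was 14.43 to 14.69 in morphine pools and 14.49 to 14.67 in control pools.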

How the data were processed

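Total RNA of 12 pools of whole zebrafish embryos was hybridised to Affymetrix Zebrafish Genome Arrays, 1 array per pool. The authors made the deposited log2 signals with RMA, which corrects background, applies quantile normalization over the arrays and summarises the probes of a probe set. The version of RMA is not given in the sources used here, nor is the build behind the array annotation. Probe intensities were not used, and the number of arrays limits the precision. The labels name the Affymetrix WT Sense Target kit for labelling.

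From the deposited values, 115 Affymetrix control probe sets of 15617 were left out and 15502 were tested by a two-sided limma fit (limma 3.58.1, R 4.3.3) of morphine minus control, with Benjamini-Hochberg adjustment over all of them. Probe sets were called below an adjusted p of 0.10, following the false discovery rate in the methods. The array annotation gave 1 gene to 10795 probe sets, several to 135 and none to 4572. Single values had an exact permutation test over the 924 splits of the arrays. Correlations with the actin difference, with group means left in, had a permutation test with 100000 resamples. Correlations between probe sets of the same gene were taken after removal of the group means, with arrays permuted within groups. The limma fits, with and without the replicate block, were run on simulated data with known changes. These data held no effect shared by arrays of the same replicate number, so they could not test the block. Gene order came from the current RefSeq annotation, in which 8723 genes were found.

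The rule for named genes took every member probe set, every called gene of the lists, examples of the target, proneural and somite clock lists, and for each called member the 3 probe sets with the most similar signal. Examples of other lists were chosen once their values had been seen. The members and lists were chosen with earlier results of these data known.

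Control and morphine arrays with the same replicate number in their titles had correlations of 0.225 to 0.47 after removal of group means, all above 0.1, and were taken as paired in an alternative fit with the number as a block. What the numbers stand for is not given. Correlations between arrays of different numbers are not given beside these. With group means removed, the covariances over all morphine and control array pairs cancel out, so those of different numbers were negative on average. Arrays of the same number were thus more alike on average than arrays of different numbers, and the reason was not tested. The other alternatives were SAM written anew with 100 permutations, a trended robust variance, array weights, quantile normalization again, median centring, a filter on dim probe sets (log2 signal 5 or more on 6 arrays), no shared-sequence suffix, an adjusted p under 0.05, the actin difference as covariate, the probe set with the smallest p for each gene, and leave-one-out fits over the 12 arrays. A fit without morphine pool 1 and control pools 1 and 2, the differences between dlc probe sets and the Delta differences with the _s_at probe set of dlc were added after seeing the data. Figures were drawn with matplotlib 3.10.9.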

Additional observations from a re-analysis of the deposited data

How the results depend on the processing

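The dlc probe set BG883428 was called higher in every alternative run, with a limma adjusted p of 0.00921 with the replicate block, 0.0112 without the 3 pools that stood apart on the first component, and 0.000621 to 0.0107 with each array left out (change 0.41 to 0.52). The replicate block changed no member call (dlb AL722855 0.0302), and over all probe sets it called 1547. The dlb call was lost after quantile normalization again (-0.22, adjusted p = 0.122) and at 0.05, where the count of lower members was 0. With each array left out that count was 0 to 1 and the higher count 1 to 1. The dlb probe set AL718150 gained a call after quantile normalization again (-0.205, adjusted p = 0.099). The sign of uncalled changes turned for notch3 with array weights (-0.054), with the actin covariate (-0.019), without the 3 pools (-0.082) and with single arrays left out (-0.073 to 0.305). For notch1a _s_at, whose main change was 0 and had no sign to turn, the change was 0.081 without the 3 pools. It was -0.092 to 0.072 with single arrays left out. With single arrays left out the sign also turned for dlc NM_130944 _s_at (-0.003 to 0.091), jag1b (-0.009 to 0.063) and notch1b (-0.033 to 0.098). Pathway genes called higher numbered 1 with the replicate block and 1 without the 3 pools, and 0 to 1 with single arrays left out (tle3a, without control pool 1). Marker genes called higher numbered 2 with the replicate block, 0 at 0.05 and 0 to 1 with single arrays left out. Without control pool 1 the gene called was efnb2a (limma adjusted p = 0.0727), while the call of smyhc1 was lost. The within-array changes of dlc against dla, dlb and dld were 0.44 to 0.55, 0.65 to 0.74 and 0.48 to 0.63 with single arrays left out. With NM_130944 _s_at for dlc they were 0.082, 0.274 and 0.129 (exact permutation adjusted p of 0.396, 0.0519 and 0.396). With pools paired by replicate number, the exact sign-flip test gave adjusted p = 0.0312 for the 3 differences with BG883428, the smallest that 6 pairs allow. The cause of each change was not tested. Limits are 6 arrays per group, 1 dose and 1 time. Dim or shared-sequence probe sets are a further limit for dlb, dlc, notch1a, notch1b, notch2, her1, her7 and her4. Among the members the filter on dim probe sets left out dlb AL718150, dlc NM_130944 _at, both of notch1a, that of notch1b, and notch2 Y10354 and U57974.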

Other observations

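For each called member, the probe sets with 1 gene symbol most like it were found by Pearson's correlation of signals over the 12 arrays, with group means removed, among 10794 others. These are descriptions, with no p, and the arrays share the processing. Most like dlb AL722855 were kdm4b (r = 0.96, rho = 0.94), ptbp3 (r = 0.95, rho = 0.94) and eif5a2 (r = 0.935, rho = 0.90). None of these was called, with changes of 0.16, 0.18 and 0.071 (limma adjusted p of 0.752, 0.44 and 0.874), so that dlb was lower with morphine while the probe sets that moved with it inside the groups were not. Most like dlc BG883428 was eml5 (r = 0.91, rho = 0.94), which changed by -0.008 (limma adjusted p = 0.967). After it came zgc:153352 (r = 0.80, rho = 0.75), which changed by -0.029 (limma adjusted p = 0.882), and pdgfaa, a growth factor gene (r = 0.79, rho = 0.57), which was called higher at 0.17 (limma adjusted p = 0.0598), a call lost in 7 of 12 fits that left out 1 array.

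The genes next to the members in chromosome order were also examined, 5 array genes on each side of each member, after the member values were seen. Of these 100 neighbours 4 were called higher and 7 lower, 11% in all beside 7.81% of all genes. Around dlc, 2 of 10 neighbours were higher and 1 was lower. There ppp1r14ab, 4 array genes away, had a mean of 4.795 in morphine pools and 3.63 in control pools, a change of 1.16 (limma adjusted p = 3.62e-07). The next array gene on one side, chp2, changed by 0.28 (limma adjusted p = 0.0076). On the other side the next array gene, timm50, changed by -0.20 (limma adjusted p = 0.0695). Genes without a probe set may lie between them and were not counted. Beside notch1a, whose own probe sets were not called, si:dkey-102g19.3 had a mean of 4.425 in morphine pools and 6.02 in control pools, a change of -1.59 (limma adjusted p = 6.45e-08). Further from notch1a, phyhd1 changed by -0.64 (limma adjusted p = 7.08e-05) and lrrc8aa by 0.42 (limma adjusted p = 0.0561). Around dlb, alkbh6 at -0.41 (limma adjusted p = 0.0441) and nccrp1 at -0.225 (limma adjusted p = 0.0716) were lower. Around notch1b, anxa1b at -0.45 (limma adjusted p = 0.00127) and coq2 at -0.285 (limma adjusted p = 0.0414) were lower, and around dla, pgam1b was higher at 0.22 (limma adjusted p = 0.0206). The neighbours of dld, jag1b, jag2b, notch2 and notch3 held 0 called genes by limma at this threshold. With single arrays left out the calls of timm50, nccrp1, lrrc8aa, alkbh6 and coq2 were lost in 7, 6, 3, 2 and 1 of 12 fits, and those of the other 6 neighbours in 0.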
